A study of Mus musculus with 24 samples.

Results

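The genes described here are 38 mouse genes of mitosis and cytokinesis, measured in the infarcted anterior wall of the heart after a temporary coronary occlusion. They were chosen by gene name, from cyclins and mitotic kinases to the proteins that separate the daughter cells. Earlier results of these data were known when they were chosen. Each was read from its brightest probe on an Agilent single-colour microarray. All 38 were measured, among 15875 genes that entered the tests. RNA came from the area at risk of male C57BL6/J mice whose left anterior descending coronary artery had been occluded for 45 min and then reopened. IGF1 groups received recombinant IGF1 under the skin, 40 ng/g at once when flow returned, followed over the first 3 days by 1 µg/g daily through an implanted pump. Vehicle groups received phosphate-buffered saline with albumin and no IGF1. Hearts were taken at 24, 48 and 168 h of reperfusion, with 4 arrays for IGF1 and 4 for vehicle at each time, 24 arrays in all. At 168 h the pump period had ended. The labels used here give no age. The design text speaks of sham-operated controls, whereas the labels of the vehicle samples name the 45 min ischemia; the labels were followed. No label ties an array to an animal, so the p-values reflect how these samples scatter, and that scatter may be technical.

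Dividing cells raise these transcripts together late in the cell cycle. Cyclin B binds CDK1 to start mitosis, Aurora and Polo-like kinases build the spindle, condensins pack the chromosomes, and a checkpoint at the kinetochore holds back the anaphase-promoting complex until every chromosome is attached. A ring of actin and myosin, placed with the help of the centralspindlin complex and the protein PRC1, then separates the daughter cells. Adult mouse cardiomyocytes rarely divide, while fibroblasts, endothelial cells and leukocytes of a healing infarct can. In whole tissue, fewer dividing cells and less RNA per cell cannot be told apart.

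The arrays were alike in quality: 52.8% to 62.9% of spots stood well above background, no spot was saturated, and arrays of the same group correlated at r between 0.983 and 0.993 over genes. All 8 cardiomyocyte markers were well above background on all 24 arrays. Of the 38 mitotic genes, 35 were well above background on all 24 arrays, while Kif4 was on 21, Kif11 on 20 and Kif2c on 19. Levels below are log2 signals relative to the array's 75th percentile. They compare arrays for a given gene, not genes with each other. A gene was called when its p in limma's moderated test, adjusted by the Benjamini-Hochberg method over all 15875 genes, was under 0.05.

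At 24 h, most mitotic genes were lower with IGF1 than with vehicle. Of the 38, 32 were called lower, 1 was called higher and 5 were not called, where 8.08% of all genes were called lower and 8.25% higher. The median log2 difference over the 38 genes was -1.06, beside -0.003 over all genes. The vehicle arrays differed widely among themselves in these genes. Vehicle replicate 3 was the lowest vehicle array for 38 of 38 genes, while over all genes it was the lowest in 31.8%. The median over the 38 genes was -1.93, -1.57, -1.97 and -2.31 in the 4 IGF1 arrays, against -2.09 in vehicle replicate 3 and -0.35, -0.33 and -0.73 in vehicle replicates 1, 2 and 4. Thus replicate 3 stood among the IGF1 arrays and the other 3 vehicle arrays stood above them all. The groups did not overlap for 4 genes that were lower with IGF1, namely Ncapg2, Mad2l1, Ect2 and Racgap1, and for 1 that was higher, Pttg1. Over all genes, 9.1% did not overlap with IGF1 lower and 9.32% with IGF1 higher.

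**Figure D1:**
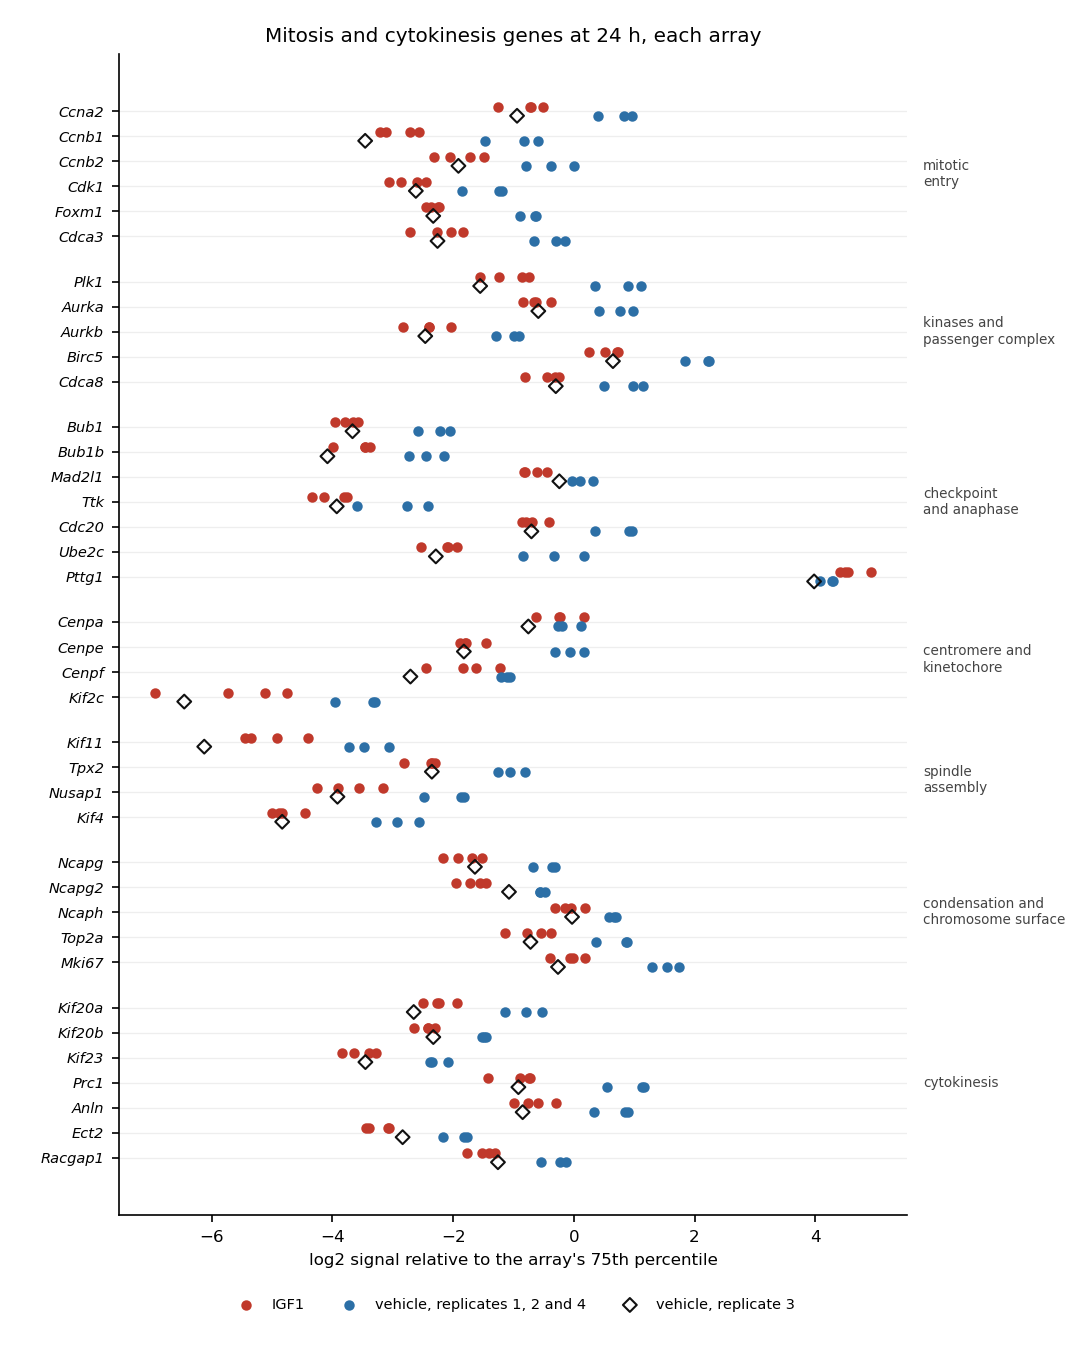
Level of each mitosis and cytokinesis gene at 24 h in the 4 IGF1 arrays (red), in vehicle replicates 1, 2 and 4 (blue) and in vehicle replicate 3 (open diamond), as log2 signal relative to the array's 75th percentile, grouped by role. In 36 of the 38 rows the blue points all lie to the right of the red points, and in 27 rows the diamond falls inside the range of the red points.

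Over the 24 arrays the 38 genes varied together. The correlation of each gene with the median of the other 37 had a median of r = 0.98, and 30 of 38 genes reached 0.95. The arrays share groups, slides and scaling, and the differences between times are part of this r. After the mean of each of the 6 groups was removed, the median r was 0.947 and 25 genes reached 0.9. Vehicle replicate 3 of 24 h, the lowest vehicle array for 38 of 38 genes, enters this r. The median standard deviation was 0.763 in its group, or 0.278 without it, against 0.124 to 0.338 in the other groups. How much of the r within groups rests on that array was not tested. The least alike were Pttg1, at r = -0.31 over the 24 arrays and 0.29 within groups, and Cenpa, at 0.83 and 0.75. Genes with the closest likeness to the rest were Plk1 and Anln, at 0.996 both. The 38 genes lie on 16 chromosomes.

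The genes also share promoter letters that the choice of genes did not use. Windows of 300 bases, 250 before and 50 after a transcription start, were taken from RefSeq (GRCm38.p6) and matched 33 of the genes by symbol, in 35 windows; Aurkb, Ccna2, Foxm1, Kif20a and Tpx2 had none in the table. Each window was searched on both strands for TTTGAA and TTCGAA, letters of the cell cycle genes homology region (CHR), which is bound by the MuvB complexes in known mitotic promoters, and for CCAAT, the letters bound by NF-Y. TTTGAA or TTCGAA was present in 28 of 35 windows (80%), against 19.2% of all 32851 windows. CCAAT was present in 26 (74.3%), against 37.4%, and at least 2 CCAAT in 17 (48.6%), against 11.7%. Both kinds were present in 24 (68.6%), against 7.52%. These shares describe letters, and binding was not measured here.

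The next lines give 7 windows, 5 of genes that were called lower at 24 h and hold such letters, then Cenpa, which was not called and holds them too, and Birc5, which was called lower and has none. Capitals mark TTTGAA and, on either strand, the NF-Y letters CCAAT, which read as ATTGG when they lie on the other strand; each sequence runs 5′ to 3′ on the strand of the gene.
Ccnb2: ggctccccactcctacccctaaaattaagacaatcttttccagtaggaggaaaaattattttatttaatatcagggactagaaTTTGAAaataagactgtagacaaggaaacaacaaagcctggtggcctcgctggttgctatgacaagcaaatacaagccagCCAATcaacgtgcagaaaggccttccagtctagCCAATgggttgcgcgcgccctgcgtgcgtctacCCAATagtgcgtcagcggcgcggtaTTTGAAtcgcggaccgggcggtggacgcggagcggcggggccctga
Cdc20: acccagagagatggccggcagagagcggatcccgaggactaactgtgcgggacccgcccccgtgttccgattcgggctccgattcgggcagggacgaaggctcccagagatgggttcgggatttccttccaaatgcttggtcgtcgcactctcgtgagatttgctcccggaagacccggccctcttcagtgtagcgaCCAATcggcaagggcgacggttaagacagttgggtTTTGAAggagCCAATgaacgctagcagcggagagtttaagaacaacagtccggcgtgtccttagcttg
Plk1: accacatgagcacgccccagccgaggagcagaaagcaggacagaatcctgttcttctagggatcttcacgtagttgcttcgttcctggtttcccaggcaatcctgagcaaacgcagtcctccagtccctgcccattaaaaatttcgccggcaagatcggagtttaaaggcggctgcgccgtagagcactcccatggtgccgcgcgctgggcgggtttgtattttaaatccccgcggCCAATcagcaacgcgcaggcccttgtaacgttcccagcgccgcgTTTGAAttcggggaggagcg
Mki67: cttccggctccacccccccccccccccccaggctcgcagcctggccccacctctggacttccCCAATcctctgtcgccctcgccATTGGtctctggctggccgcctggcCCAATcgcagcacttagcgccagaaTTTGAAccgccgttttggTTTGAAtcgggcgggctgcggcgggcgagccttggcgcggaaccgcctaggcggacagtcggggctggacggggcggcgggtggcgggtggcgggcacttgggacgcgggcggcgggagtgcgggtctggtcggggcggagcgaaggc
Ncapg2: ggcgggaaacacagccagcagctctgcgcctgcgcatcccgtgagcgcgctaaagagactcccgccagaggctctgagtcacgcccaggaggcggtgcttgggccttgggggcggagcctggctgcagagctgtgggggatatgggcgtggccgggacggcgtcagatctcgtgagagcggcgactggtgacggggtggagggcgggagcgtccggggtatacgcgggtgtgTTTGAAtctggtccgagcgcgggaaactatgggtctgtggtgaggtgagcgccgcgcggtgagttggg
Cenpa: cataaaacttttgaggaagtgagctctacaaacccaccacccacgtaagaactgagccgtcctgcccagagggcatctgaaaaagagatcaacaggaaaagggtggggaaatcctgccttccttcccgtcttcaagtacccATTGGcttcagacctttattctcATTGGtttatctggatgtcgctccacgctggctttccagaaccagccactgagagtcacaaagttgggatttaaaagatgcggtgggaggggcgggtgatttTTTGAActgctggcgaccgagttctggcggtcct
Birc5: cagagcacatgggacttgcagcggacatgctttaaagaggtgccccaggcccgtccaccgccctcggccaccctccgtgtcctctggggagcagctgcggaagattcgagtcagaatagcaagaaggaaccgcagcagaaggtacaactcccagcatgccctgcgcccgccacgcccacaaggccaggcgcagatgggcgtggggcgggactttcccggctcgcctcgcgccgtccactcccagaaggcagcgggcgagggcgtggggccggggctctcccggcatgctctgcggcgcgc

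Ccnb2 lies on the minus strand at chr9:70421505-70421804, with CCAAT at positions -87, -54 and -21 from the start site and TTTGAA at -167 and 5. The window of Cdc20 (chr4:118437294-118437593, minus strand) holds TTTGAA at -18 and CCAAT at -53 and -8, and that of Plk1 (chr7:122159185-122159484, plus strand) has CCAAT at -14 and TTTGAA at 31. Mki67 (chr7:135716330-135716629, minus strand) has CCAAT at -188 and -141, on the other strand at -166, and TTTGAA at -116 and -98. Ncapg2 (chr12:116405186-116405485, plus strand), the gene with the smallest p at 24 h, has TTTGAA at -18 and no CCAAT. In Cenpa (chr5:30666636-30666935, plus strand), TTTGAA at 17 follows CCAAT of the other strand at -109 and -86. Birc5 (chr11:117848987-117849286, plus strand) has neither, nor do the windows of Nusap1, Ncaph, Mad2l1 and Pttg1. The window of Pttg1 (chr11:43425932-43426231, minus strand) lies inside the annotated gene, as do those of Aurka, Cdca3, Ect2 and Kif2c, which hold such letters, so these 5 genes' windows need not cover the outermost start.

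Genes that start mitosis were called lower in 6 of 6 cases, by a median of -1.17 on the log2 scale. Of all genes, 8.08% were called lower and 8.25% higher, shares that also stand beside the counts of the other roles below. Differences between roles were not tested. Foxm1 encodes the transcription factor that drives many G2 and mitotic genes. Foxm1 stood at -2.36, -2.26, -2.23 and -2.44 in the IGF1 arrays, against -0.63, -0.64, -2.33 and -0.89 in the vehicle arrays. Vehicle replicate 3 alone overlapped the IGF1 arrays, and the mean was 2.30-fold lower with IGF1 (log2 difference -1.20 ± 0.26 SE, n = 4 each, limma adjusted p = 0.00579). Cdca3, known as a trigger of mitotic entry, stood at -2.04, -1.83, -2.26 and -2.72 in the IGF1 arrays, against -0.14, -0.30, -2.26 and -0.66 in the vehicle arrays. Here too replicate 3 of the vehicle group lay inside the IGF1 range, and the mean was 2.59-fold lower with IGF1 (-1.37 ± 0.32 SE, limma adjusted p = 0.00768). The cyclin genes Ccna2, Ccnb1 and Ccnb2 and the kinase gene Cdk1 had log2 differences of -1.12, -1.31, -1.13 and -1.02, all called.

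The mitotic kinases and the chromosomal passenger complex, which carries Aurora B to centromeres and then to the spindle midzone, were called lower in 5 of 5 cases. Birc5 encodes survivin, the passenger protein that docks the complex on chromatin. It stood at 0.52, 0.73, 0.71 and 0.25 in the IGF1 arrays, against 2.25, 2.23, 0.65 and 1.85 in the vehicle arrays. Cdca8 encodes borealin, another subunit, and stood at -0.45, -0.24, -0.30 and -0.81 in the IGF1 arrays, against 0.97, 1.14, -0.30 and 0.50 in the vehicle arrays. For both genes, replicate 3 of the vehicle group was inside the IGF1 range and the other 3 vehicle arrays were above it. Birc5 was 2.28-fold lower with IGF1 (-1.19 ± 0.25 SE, limma adjusted p = 0.00423). Cdca8 was 2.04-fold lower (-1.03 ± 0.24 SE, limma adjusted p = 0.0082). Plk1, Aurka and Aurkb, which encode the kinases themselves, had log2 differences of -1.31, -1.02 and -1.01, all called.

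Among 7 genes of the spindle checkpoint and of anaphase, 5 were called lower and 1 higher. Mad2l1 encodes the checkpoint protein MAD2, which captures CDC20. It stood at -0.81, -0.44, -0.61 and -0.83 in the IGF1 arrays, against 0.32, 0.10, -0.24 and -0.03 in the vehicle arrays. Every IGF1 array was below every vehicle array, replicate 3 included, and the mean was 1.63-fold lower (-0.71 ± 0.13 SE, limma adjusted p = 0.00189). Cdc20, the activator of the anaphase-promoting complex, stood at -0.69, -0.41, -0.79 and -0.86 in the IGF1 arrays, against 0.91, 0.96, -0.70 and 0.36 in the vehicle arrays. It was 2.10-fold lower with IGF1, with vehicle replicate 3 inside the IGF1 range (-1.07 ± 0.25 SE, limma adjusted p = 0.00871). Bub1b, which encodes the checkpoint protein BUBR1, was not called. It stood at -3.46, -3.38, -3.47 and -3.99 in the IGF1 arrays, against -2.45, -2.15, -4.08 and -2.73 in the vehicle arrays (-0.72 ± 0.28 SE, limma adjusted p = 0.0878). Vehicle replicate 3 was the lowest of the 8 arrays for Bub1b. The checkpoint kinase genes Bub1 and Ttk and the ubiquitin-conjugating enzyme gene Ube2c were called lower, with log2 differences of -1.11, -0.84 and -1.34.

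Pttg1 encodes securin, which restrains the protease separase until anaphase, and it was the single gene of the 38 called higher with IGF1. It stood at 4.93, 4.50, 4.54 and 4.41 in the IGF1 arrays, against 4.30, 4.08, 3.98 and 4.27 in the vehicle arrays. Every IGF1 array was above every vehicle array, and the mean was 1.35-fold higher (0.44 ± 0.11 SE, limma adjusted p = 0.00943). A dimmer probe of Pttg1 had a log2 difference of 0.26, in the same direction. Its groups overlapped, at -3.42 to -3.00 in the IGF1 arrays and -3.71 to -3.25 in the vehicle arrays.

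Centromere and kinetochore genes were called in 1 of 4 cases. Cenpe, a kinesin that carries chromosomes to the spindle equator, stood at -1.81, -1.46, -1.89 and -1.79 in the IGF1 arrays, against -0.07, 0.16, -1.82 and -0.30 in the vehicle arrays. With vehicle replicate 3 inside the IGF1 range, Cenpe was 2.35-fold lower (-1.23 ± 0.29 SE, limma adjusted p = 0.00812). Cenpa, the histone H3 variant that marks the centromere, stood at 0.17, -0.25, -0.22 and -0.62 in the IGF1 arrays, against 0.11, -0.26, -0.75 and -0.19 in the vehicle arrays. Its groups overlapped, and the difference of 0.04 ± 0.16 SE was not called (limma adjusted p = 0.892). Cenpf, a protein of the outer kinetochore, stood at -1.23, -1.63, -1.83 and -2.45 in the IGF1 arrays, against -1.06, -1.10, -2.71 and -1.21 in the vehicle arrays (-0.26 ± 0.29 SE, limma adjusted p = 0.582). Another Cenpf probe, well above background on 21 arrays, had a log2 difference of -1.36, so the 2 probes of this gene disagree in size. Kif2c, a kinesin that takes apart wrongly attached microtubules, read -5.74, -4.76, -6.95 and -5.12 in the IGF1 arrays, none well above background, against -3.33, -3.29, -6.46 and -3.96 in the vehicle arrays. Vehicle replicate 3 was not well above background either, and its reading enters the vehicle mean. On these means the level was at least 1.49-fold lower with IGF1, a bound that carries no error. The gene was not called (limma adjusted p = 0.0765). With slide as a block it was called lower (limma adjusted p = 0.0312), as under 6 of 20 alternatives in all, over which the adjusted p ranged from 0.00152 to 0.288.

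Spindle assembly genes were called lower in 3 of 4 cases. Tpx2, which activates Aurora A on the spindle, stood at -2.29, -2.37, -2.35 and -2.82 in the IGF1 arrays, against -1.05, -0.80, -2.35 and -1.26 in the vehicle arrays. Kif4, a chromosome-bound kinesin, stood at -4.83, -4.46, -4.89 and -5.01 in the IGF1 arrays, 2 of them well above background, against -2.56, -2.92, -4.83 and -3.27 in the vehicle arrays, 3 of them well above background. Vehicle replicate 3 lay inside the IGF1 range for both. Tpx2 was 2.13-fold lower (-1.09 ± 0.24 SE, limma adjusted p = 0.00577). Kif4 was 2.64-fold lower (-1.40 ± 0.34 SE, limma adjusted p = 0.0101). Kif11, the motor that pushes spindle poles apart, stood at -4.40, -4.92, -5.34 and -5.44 in the IGF1 arrays, 1 of them well above background, against -3.48, -3.07, -6.12 and -3.73 in the vehicle arrays, 3 of them well above background. Vehicle replicate 3 was the lowest of the 8 arrays for Kif11, and the gene was not called (-0.93 ± 0.45 SE, limma adjusted p = 0.165). Nusap1, which bundles microtubules, was called lower, with a log2 difference of -1.20.

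Genes of chromosome condensation and of the chromosome surface were called lower in 5 of 5 cases. Ncapg2, a subunit of condensin II, stood at -1.95, -1.46, -1.56 and -1.72 in the IGF1 arrays, against -0.47, -0.56, -1.07 and -0.56 in the vehicle arrays. Its groups did not overlap, and it had the smallest adjusted p of the 38 genes (2.00-fold lower, SE 0.14 on the log2 scale, limma adjusted p = 0.000303). Ncapg, the matching subunit of condensin I, stood at -1.92, -1.52, -1.69 and -2.16 in the IGF1 arrays, against -0.31, -0.36, -1.64 and -0.67 in the vehicle arrays. It was 2.11-fold lower, with vehicle replicate 3 inside the IGF1 range (-1.08 ± 0.24 SE, limma adjusted p = 0.00555). Mki67 encodes the proliferation marker Ki-67, which coats mitotic chromosomes. It stood at 0.18, -0.02, -0.06 and -0.39 in the IGF1 arrays, against 1.54, 1.75, -0.26 and 1.30 in the vehicle arrays. Again replicate 3 was the vehicle array that overlapped, and the mean was 2.22-fold lower with IGF1 (-1.15 ± 0.29 SE, limma adjusted p = 0.0128). Top2a, which untangles sister DNA, and the condensin I gene Ncaph had log2 differences of -1.06 and -0.56, both called.

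All 7 cytokinesis genes were called lower. Racgap1, a subunit of centralspindlin, stood at -1.52, -1.31, -1.40 and -1.78 in the IGF1 arrays, against -0.12, -0.24, -1.26 and -0.54 in the vehicle arrays. Ect2, which activates RhoA at the cleavage site, stood at -3.45, -3.08, -3.07 and -3.39 in the IGF1 arrays, against -1.78, -1.83, -2.84 and -2.17 in the vehicle arrays. Neither gene overlapped between the groups, and replicate 3 was the vehicle array nearest to the IGF1 arrays for both. Racgap1 was 1.95-fold lower (-0.96 ± 0.19 SE, limma adjusted p = 0.00322). Ect2 was 2.13-fold lower (-1.09 ± 0.22 SE, limma adjusted p = 0.00337). Prc1, which bundles microtubules at the midzone, was 2.70-fold lower, and the log2 differences of Kif20a, Kif20b, Kif23 and Anln lay between -0.97 and -0.74.

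Of the 38 genes, 19 had further probes that passed the filter on dim signals, 21 such probes in all, and at 24 h each of these had the same sign of difference as the brightest probe.

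The size of the 24 h difference depended on vehicle replicate 3. For the 38 genes the median standard deviation at 24 h was 0.258 between IGF1 arrays and 0.763 between vehicle arrays, or 0.278 between vehicle arrays without replicate 3. Over all genes the medians were 0.193 with IGF1 and 0.159 with vehicle. The spread in the test was pooled over all 6 groups, and the other 4 groups had medians of 0.124 to 0.338. When the spread was taken from the 8 arrays of 24 h alone, 3 of the 38 genes were called lower, namely Ncapg2, Mad2l1 and Ect2, where 3.26% of all genes were called lower. When single arrays were left out in turn, the number called lower was between 17, without vehicle replicate 2, and 36, without vehicle replicate 3. Of all genes, 4.43% and 6.98% were called lower under these settings. The calls lost without vehicle replicate 2 were those of Ccna2, Ccnb1, Ccnb2, Cdk1, Plk1, Aurka, Aurkb, Ttk, Ube2c, Nusap1, Ncaph, Mki67, Kif20a, Kif23 and Anln, and leaving out any other single array of 24 h lost calls among these genes alone. Without vehicle replicate 3 the median log2 difference was -1.41, and Cenpa was the gene not called, while Cenpf passed narrowly (limma adjusted p = 0.0486, with a range of 0.0486 to 0.949 over its alternatives). Ncapg2, Mad2l1 and Ect2 were called lower under every one of 20 alternative settings, with adjusted p of at most 0.0208, 0.0325 and 0.0384 in limma.

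**Figure D2:**
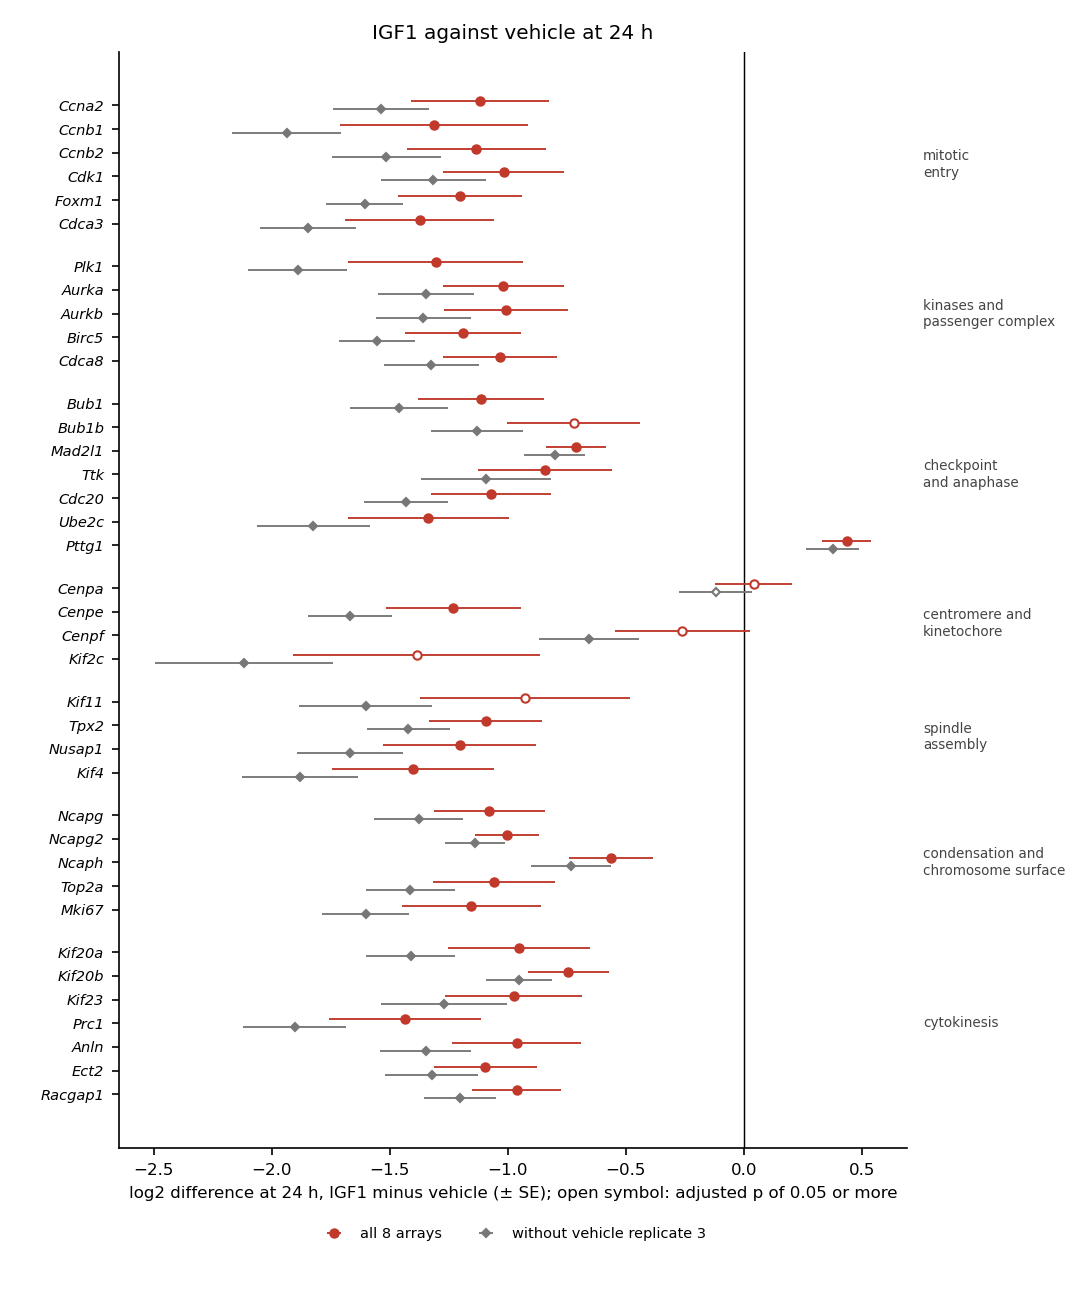
Log2 difference at 24 h, IGF1 minus vehicle, with its standard error, for each gene with all 8 arrays (red circles) and without vehicle replicate 3 (grey diamonds); open symbols had an adjusted p of 0.05 or more. With all arrays 33 genes are called and the median is -1.06, and without vehicle replicate 3 the median is -1.41 and Cenpa alone has an open diamond.

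At 24 h each of the 4 slides held 1 IGF1 array and 1 vehicle array, so the comparison could be read within each slide. On slides 1, 2 and 4 the median difference over the 38 genes was -1.46, -1.36 and -1.36, with 36, 36 and 37 genes below 0. On slide 3, which held vehicle replicate 3, the median was 0.04 and 15 genes were below 0. Ncapg2 and Mad2l1 differed there by -0.48 and -0.37. Kif2c was not well above background on either array of slide 3, so its difference there has no measured size. Leaving out both arrays of slide 3, a choice made after seeing the data, gave a median of -1.42 and 35 genes called lower, where 6.56% of all genes were. Over all genes the median within a slide was between -0.0437 and 0.019 at 24 h.

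**Figure D3:**
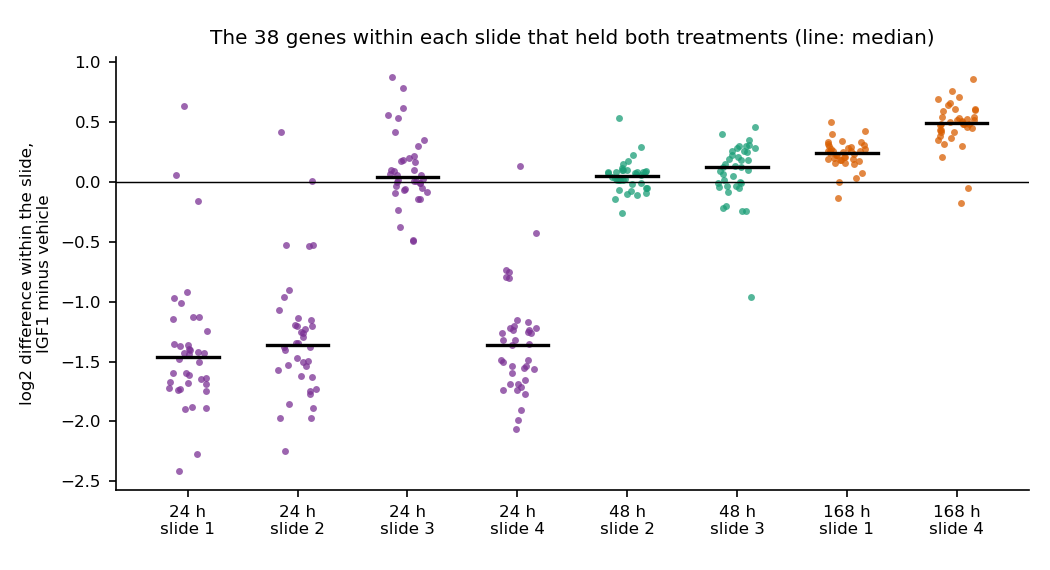
Difference between IGF1 and vehicle arrays of the same slide for the 38 genes (points; line, median), on the log2 scale, at 24, 48 and 168 h. At 24 h slides 1, 2 and 4 have medians of -1.46, -1.36 and -1.36 and slide 3 has 0.04; medians at 48 h are 0.05 and 0.12, and at 168 h 0.24 and 0.49.

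Vehicle replicate 3 was nearer to the IGF1 mean than to the mean of the other vehicle arrays for 35 of the 38 genes. The same held for 36.4% of all genes. Lists of cell type markers at 24 h gave a mixed picture. For 7 measured markers of dendritic cells and MHC class II, the mean level was -1.12 to -0.53 in the IGF1 arrays, against 0.32 in vehicle replicate 3 and 0.12 to 0.45 in the other vehicle arrays. For 6 measured markers of T and NK cells it was -3.25 to -2.67 with IGF1, against -2.14 in vehicle replicate 3 and -2.02 to -1.86 in the other vehicle arrays. For 8 markers of monocytes and macrophages it was 1.93 to 2.40 with IGF1, against 2.78 in vehicle replicate 3 and 2.86 to 2.91 in the others. In these 3 lists replicate 3 lay nearer to the other vehicle arrays than to the IGF1 arrays. Granulocyte precursor markers went the other way: for 3 measured markers the mean was -4.86 to -3.71 with IGF1, against -3.82 in vehicle replicate 3 and -3.46 to -3.39 in the others, and replicate 3 was the lowest vehicle array for 3 of 3. These markers were dim, and 0 of the 3 were well above background on all 24 arrays. The neutrophil and fibroblast means of replicate 3 also lay inside the IGF1 range and outside that of the other vehicle arrays.

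Several leukocyte lists were lower with IGF1 at 24 h together with the mitotic genes. Called lower were 6 of 7 markers of dendritic cells and MHC class II, 6 of 8 of monocytes and macrophages, with 1 higher, 4 of 6 of T and NK cells, and 3 of 4 of B cells. Of all genes, 8.08% were called lower and 8.25% higher. Of the 4 B cell markers, 2 were well above background on all 24 arrays. Of 8 cardiomyocyte markers, 4 were called higher with IGF1, and their mean level was 6.84 to 7.16 in the IGF1 arrays, against 6.40 to 6.82 in the vehicle arrays. Mean levels of 6 endothelial markers were 2.47 to 2.61 in the IGF1 arrays, against 2.37 to 2.53 in the vehicle arrays. The 7 neutrophil markers had means of 2.81 to 3.59 in the IGF1 arrays, and the lowest mean of the 6 fibroblast markers among the IGF1 arrays was 2.66. Vehicle replicate 3 had the highest level of the 4 vehicle arrays for 6 of 7 neutrophil markers, with a mean of 3.39 against 2.58 to 3.12 in the others, and the lowest for 5 of 6 fibroblast markers, with a mean of 2.76 against 3.04 to 3.32. Of the listed markers, Xcr1, Cd8a, Ncr1, Cd79a, Klf1, Ctsg and Ms4a3 did not pass the filter on dim probes. The part of these cell types in the mitotic differences was not tested.

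**Figure D4:**
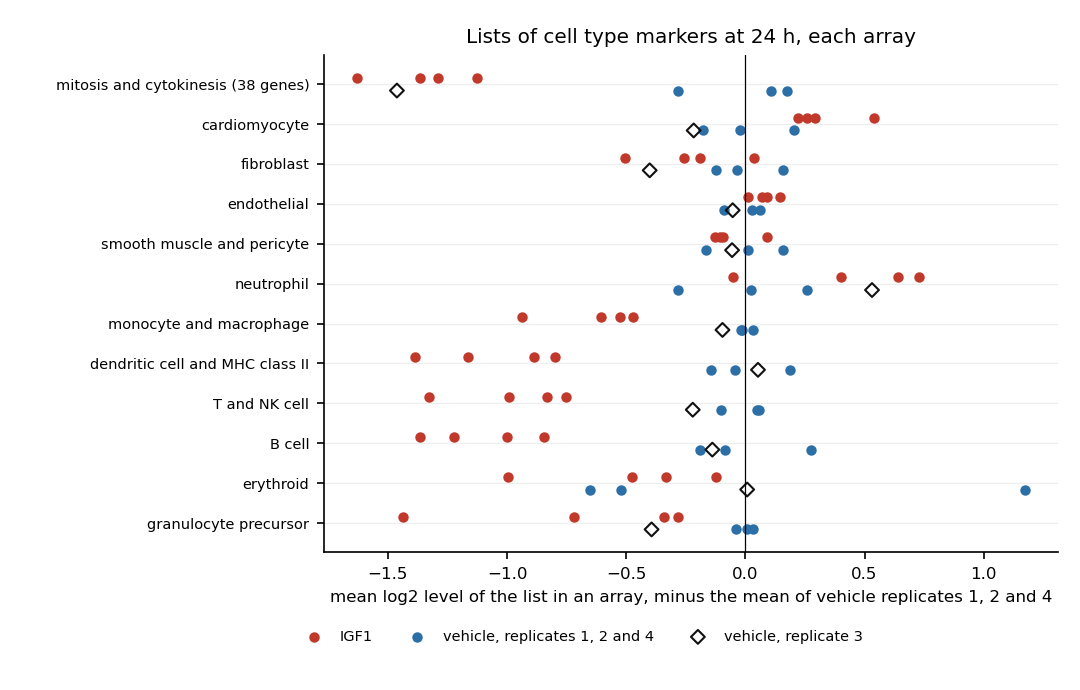
Mean log2 level of the 38 mitosis and cytokinesis genes and of 11 lists of cell type markers in each array at 24 h, minus the mean of vehicle replicates 1, 2 and 4; IGF1 arrays in red, vehicle replicates 1, 2 and 4 in blue, vehicle replicate 3 as an open diamond. For the mitotic genes the diamond lies among the red points (before the subtraction its mean level is -1.99, where the IGF1 arrays have -2.16 to -1.66). It lies near the blue points for dendritic cell, B cell, T and NK cell and macrophage lists. For the granulocyte precursor, neutrophil and fibroblast lists it falls within the range of the red points and outside that of the blue points. Of the 3 granulocyte precursor markers, 0 were well above background on all 24 arrays.

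Other genes of the cell cycle were also lower with IGF1 at 24 h. Of 50 other mitotic genes, 35 were called lower, with a median of -0.72, where 8.08% of all genes were called lower. The 3 with the smallest p were the condensin gene Smc2 (-0.68 ± 0.12 SE), the separase gene Espl1 (-0.87 ± 0.16 SE) and the kinetochore gene Cenpk (-0.80 ± 0.16 SE). Vehicle replicate 3 was the lowest vehicle array for 47 of these 50. Of 25 measured genes of G1 and S phase entry, 16 were called lower, with a median of -0.47, led by the replicative helicase gene Mcm6 (-0.61 ± 0.12 SE) and the transcription factor genes E2f2 and E2f1 (-0.75 ± 0.15 and -0.69 ± 0.14 SE). For that list replicate 3 was the lowest vehicle array for 15 of 25 genes, and its mean of 1.21 lay between those of the IGF1 arrays, 0.74 to 1.15, and the other vehicle arrays, 1.36 to 1.56.

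Of 20 cell cycle inhibitors and pocket proteins, 2 were called higher and 4 lower, where 8.25% of all genes were called higher and 8.08% lower. Counts this small do not set this list, or the next 2, apart from all genes. Cdkn1c, which encodes the CDK inhibitor p57, was 2.01-fold higher with IGF1 (1.01 ± 0.19 SE, limma adjusted p = 0.00235), with levels of 1.22 to 2.30 in the IGF1 arrays, against 0.41 to 0.86 in the vehicle arrays. Ccng1, a p53 target that encodes cyclin G1, was 1.50-fold higher (0.58 ± 0.14 SE, limma adjusted p = 0.0103). The antiproliferative gene Btg1 was 1.38-fold lower (-0.47 ± 0.09 SE, limma adjusted p = 0.00246). Of 10 genes of the DREAM and MuvB complexes and their partners, which repress or activate mitotic genes at their promoters, Lin9 and Nfya were called lower (-0.47 ± 0.12 and -0.44 ± 0.12 SE). Of 14 genes of the anaphase-promoting complex and its regulators, 1 was called, the inhibitor gene Fbxo5 (-0.83 ± 0.20 SE, limma adjusted p = 0.0092).

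At 48 h most mitotic genes had reached higher levels in both treatments. With vehicle, 37 of 38 genes were called higher at 48 h than at 24 h, all but Pttg1, where 11.6% of all genes were called higher; the median log2 difference was 1.77. With IGF1, 37 were called higher, where 17.2% of all genes were, and the median was 2.99; Pttg1 was called lower, where 19.3% of all genes were. The median of the 38 genes was 1.20, 1.20, 1.25 and 1.01 in the IGF1 arrays of 48 h, against 1.17, 1.18, 0.95 and 0.71 in the vehicle arrays of 48 h. In the 37 genes called higher, no array of 48 h overlapped an array of 24 h of the same treatment. Among all genes, 16.7% were higher without overlap with IGF1 and 11.5% with vehicle. Of the 50 other mitotic genes, 49 were called higher at 48 h with IGF1, with a median of 2.13, and 45 with vehicle, with a median of 1.32.

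Ccnb2, which encodes cyclin B2, showed the largest rise in both treatments. With IGF1 it stood at 2.33, 2.42, 2.42 and 2.25 at 48 h, against -1.73, -1.49, -2.05 and -2.32 at 24 h, a 19.1-fold higher mean (4.26 ± 0.29 SE, limma adjusted p = 1.09e-08). With vehicle it stood at 2.41, 2.25, 2.11 and 1.67 at 48 h, against -0.37, 0.01, -1.91 and -0.79 at 24 h, a 7.36-fold higher mean (2.88 ± 0.29 SE, limma adjusted p = 4.43e-06). The 48 h levels of the 2 treatments overlapped. Mki67 was 10.1-fold higher at 48 h than at 24 h with IGF1 and 4.07-fold higher with vehicle. Ncapg2 was 3.15-fold higher with IGF1 and 1.48-fold higher with vehicle. For Cenpa the log2 difference between 48 h and 24 h was 1.06 ± 0.16 SE with IGF1 and 1.09 ± 0.16 SE with vehicle. Pttg1 stood at 4.24, 4.26, 4.26 and 4.32 in the IGF1 arrays of 48 h, against 4.34, 4.27, 4.10 and 4.57 in the vehicle arrays of 48 h, and these overlapped. Kif2c, not well above background in any IGF1 array at 24 h, was at least 7.82-fold higher at 48 h with IGF1.

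IGF1 and vehicle were not called different at 48 h for any of the 38 genes, at a rate of 0.0126% of all genes called. No mitotic gene had an unadjusted p under 0.05 in limma, against 1430 of all genes. The median log2 difference was 0.12, with a range of -0.12 to 0.37. For Mki67, with 3.30, 3.37, 3.36 and 3.02 in the IGF1 arrays and 3.26, 3.24, 3.17 and 2.76 in the vehicle arrays, the difference was 0.15 ± 0.29 SE, an error that leaves room for a difference of either sign. The change of the IGF1 difference between 24 h and 48 h, tested as an interaction, was called for Ncapg2 (1.09 ± 0.19 SE, limma adjusted p = 0.041), where 0.0126% of all genes were called in that direction. It had a median of 1.22 over the 38 genes. That count also depended on vehicle replicate 3 at 24 h: without it, 33 of the 38 genes were called. The share of 0.0126% belongs to the fit with all arrays and not to that setting. The share of all genes called without that array is not given here, so the 33 genes cannot be set against it. The call of Ncapg2 was itself lost under 14 of 28 alternatives, 9 of which left out 1 array (adjusted p between 0.00147 and 0.135).

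At 168 h most levels were lower again. Relative to 48 h, 35 of 38 genes were called lower with IGF1, where 25.4% of all genes were, with a median of -1.34. With vehicle 35 were called lower, where 27.6% of all genes were, with a median of -1.52. The IGF1 arrays lay on slides 2 and 3 at 48 h and on slides 1 and 4 at 168 h, so no slide held both times. Among vehicle arrays, slide 4 alone held both times. Cenpa was not called in either treatment (-0.16 ± 0.16 SE with IGF1 and -0.23 ± 0.16 SE with vehicle); it stood at 0.44, 0.61, 0.74 and 0.87 in the IGF1 arrays of 168 h, against 0.27, 0.84, 0.70 and 0.52 in the vehicle arrays of 168 h, all above their 24 h means of -0.23 and -0.27. Kif11 and Pttg1 were not called with IGF1, and Cenpf was not called with vehicle. Pttg1 was called higher at 168 h than at 48 h with vehicle (0.26 ± 0.11 SE, limma adjusted p = 0.0416), where 25.8% of all genes were called higher. The median of the 38 genes at 168 h was -0.55, -0.15, -0.21 and -0.01 in the IGF1 arrays, against -0.68, -0.33, -0.72 and -0.52 in the vehicle arrays.

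No mitotic gene, and 0 of all genes, was called between IGF1 and vehicle at 168 h in limma; 1 mitotic gene, Ncapg2, and 637 of all genes had an unadjusted p under 0.05. The difference was above 0 for 37 of the 38 genes, with a median of 0.30. Ncapg2 stood at -0.93, -0.41, -0.76 and -0.36 in the IGF1 arrays, against -0.98, -1.01, -1.14 and -0.96 in the vehicle arrays, without overlap, where 1.32% of all genes were higher without overlap. Its difference of 0.41 ± 0.14 SE was 1.33-fold higher with IGF1 and had a limma adjusted p of 0.883. Pttg1 was the gene with a difference below 0, at -0.14. The change of the IGF1 difference between 24 h and 168 h was called in the higher direction for 29 of 38 genes, where 6.37% of all genes were, with a median of 1.39. It was called lower for Pttg1 (-0.58 ± 0.15 SE, limma adjusted p = 0.0192), where 4.69% of all genes were. Both of these changes use the 24 h arrays, so they are not independent of the 24 h comparison. The count of 29 was 17 to 19 without any 1 of vehicle replicates 1 and 2 or IGF1 replicates 1 and 4 of 24 h, or of vehicle replicate 3 or IGF1 replicates 2, 3 and 4 of 168 h, and 35 without vehicle replicate 3 of 24 h. The share of 6.37% belongs to the fit with all arrays and not to these settings.

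**Figure D5:**
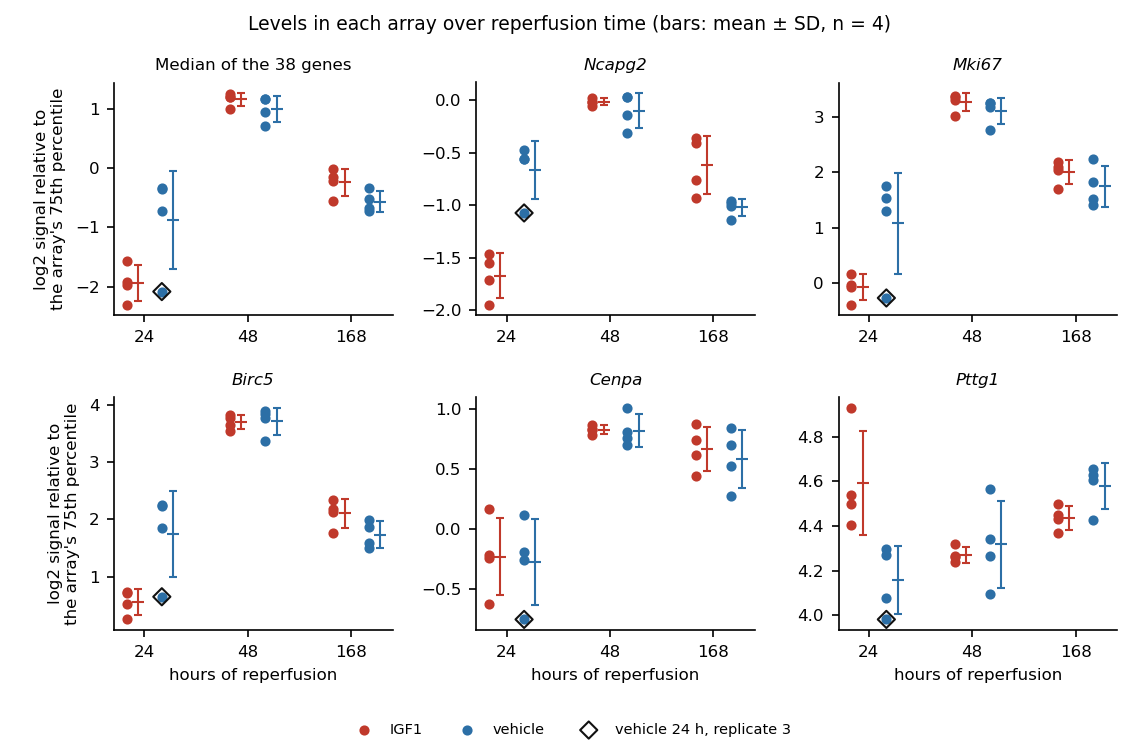
Level in each array at 24, 48 and 168 h of reperfusion, IGF1 (red) left of vehicle (blue), for the median of the 38 genes and for Ncapg2, Mki67, Birc5, Cenpa and Pttg1, as log2 signal relative to the array's 75th percentile, with mean ± SD (n = 4); vehicle replicate 3 of 24 h is circled by a diamond. The median over the 38 genes is 1.01 to 1.25 with IGF1 and 0.71 to 1.18 with vehicle at 48 h, and Pttg1 does not follow it.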

How the data were processed

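RNA of 24 samples was hybridised to Agilent single-colour arrays, 1 sample per array, on 4 slides. The deposited scanner files hold spot intensities from Agilent's Feature Extraction software, background-subtracted by the authors' scanner protocol, per the file headers. The authors also deposited a table of log2 values for 33957 probes, centred per probe; it differed from the values computed here by an SD of at most 0.0157 after 1 offset per probe, and which arrays its centring used is unknown.

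Control spots and outlier flags were left out (53 to 130 of 59305 spots per array). The processed signal was scaled to each array's 75th percentile and taken to log2. Probes were named by matching the accession in the scanner files to RefSeq transcripts. Of 56605 probes, 33767 matched 1 gene symbol and 22838 matched none. Probes that stood well above background on 4 or more arrays were kept, and each gene was read from the brightest of them, giving 15875 genes. A linear model with the 6 groups was fitted to all 24 arrays with limma 3.58.1 in R 4.3.3 (lmFit and eBayes, 18 residual degrees of freedom), and p-values were adjusted by the Benjamini-Hochberg method over all genes. The fitting code was tested on simulated data with independent noise and 1 spread per gene in every group. Such data hold no array that is low for many genes at once, so that test does not cover vehicle replicate 3 of 24 h. For arrays, their number limits the precision. Where a gene was not well above background on any array of a group, its fold is given as "at least".

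Groups came from the sample titles. Samples of IGF1 and vehicle with the same replicate number shared a slide except replicate 4 of 48 h. Their deviations from the group means correlated at r = 0.13, -0.05, 0.11 and 0.08 at 24 h, 0.10, 0.06, -0.01 and 0.11 at 48 h, and 0.29, 0.19, 0.19 and 0.50 at 168 h. The r of 168 h cannot tell a pairing of samples from a shared slide. The fit reported used no pairing at any time, and the replicate number entered as a block in an alternative. Alternatives were normexp correction (offset 50), quantile and median scaling, no filter or one of 12 arrays, the mean of probes, slide or replicate number as a block, only the arrays compared, array weights, the authors' table and each array left out. The 38 genes and the gene and marker lists were chosen with earlier results of these data known. Array values are given for up to 2 genes per role with the smallest p at 24 h and for the genes not called there; Mki67 and, at later times, Ccnb2, Cenpa, Ncapg2 and Pttg1 were added after their values were seen. Promoter windows came from RefSeq (GRCm38.p6).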

Additional observations from a re-analysis of the deposited data

Results flagged for a closer look

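In a group of 4 arrays, an array was singled out when its gap to the nearest other array, as a share of the group's range, was above Dixon's critical value. This held for 20 of 228 combinations of gene and group. Chance gives about 1 in 20 for a single combination, but these genes vary together and share the same arrays. The count is therefore not set against that rate. The levels below are log2 signals relative to the array's 75th percentile. Vehicle replicate 3 of 24 h stood below the other vehicle arrays for Foxm1 (-2.33), Cenpf (-2.71), Ncapg2 (-1.07), Ncaph (-0.029) and Kif20b (-2.33). IGF1 replicate 4 of 24 h stood below the other IGF1 arrays for Bub1b (-3.99) and Tpx2 (-2.82). At 48 h, replicate 4 was the low array in both treatments: with IGF1 for Cdca8 (2.18) and Ube2c (1.23), and with vehicle for Cdca8 (1.78), Ncapg (0.52), Mki67 (2.76), Prc1 (2.02) and Ect2 (-0.88). At 168 h, IGF1 replicate 1 was low for Ccna2 (0.66), Cdca8 (0.47), Bub1b (-2.35), Cdc20 (0.90) and Nusap1 (-1.47), and vehicle replicate 2 was high for Nusap1 (-0.93).

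The difference between IGF1 and vehicle changed between times by a test of that change for 31 results, which share the 24 h arrays. Between 24 h and 48 h it rose by 1.09 on the log2 scale for Ncapg2. Between 24 h and 168 h it fell by 0.58 for Pttg1. Over the same interval it rose for the other genes called, on the log2 scale: Ccna2 by 1.45, Ccnb2 by 1.38, Cdk1 by 1.39, Foxm1 by 1.49, Cdca3 by 1.88, Plk1 by 1.64, Aurka by 1.26, Aurkb by 1.28, Birc5 by 1.56, Cdca8 by 1.39, Bub1 by 1.49, Mad2l1 by 0.97, Ttk by 1.37, Cdc20 by 1.39, Ube2c by 1.63, Cenpe by 1.56, Tpx2 by 1.45, Nusap1 by 1.51, Kif4 by 1.69, Ncapg by 1.37, Ncapg2 by 1.41, Ncaph by 0.83, Top2a by 1.39, Mki67 by 1.41, Kif20b by 0.97, Prc1 by 1.73, Anln by 1.24, Ect2 by 1.47 and Racgap1 by 1.27.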

How the results depend on the processing

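No result on the 38 genes changed its direction while called under any alternative, and at least 1 alternative changed the number of genes called by over 1.5 times for 3 of the comparisons. At 24 h, 32 genes were called lower, between 17 and 36 with 1 array left out, and 3 when the spread came from the 8 arrays compared, which have fewer residual degrees of freedom; other alternatives gave 28 to 35. The change of the IGF1 difference from 24 h to 48 h was called for 1 gene. It was called for 0 genes under normexp background correction, quantile normalization, median scaling, no filter on dim probes and only the arrays compared. It was called for 11 genes with array weights, for 32 with both 24 h arrays of slide 3 left out (chosen after seeing the data), and for 0 to 33 with 1 array left out. The change from 24 h to 168 h was called higher for 29 genes, for 18 under median scaling, 17 with no filter, 12 with only the arrays compared, and 17 to 35 with 1 array left out. Calls over all genes moved between settings too: at 24 h, 5.49% of all genes were called with only the arrays compared and 21.7% with slide as a block. The moves of these counts are therefore not read as particular to the 38 genes. The cause of these moves was not tested. Between treatments at 48 h and 168 h, 0 of the 38 genes were called under every alternative. Between times, 33 to 38 genes were called in the same direction under every alternative, against 35 to 37 in the fit reported. With the replicate number as a block (replicate block), 32 genes were called lower at 24 h and 31 changed higher from 24 h to 168 h; at 24 h Ttk lost its call and Kif2c gained one, as Kif2c also did with slide as a block. The block changed no count of these genes by over 1.5 times. Pttg1 at 24 h lost its call with only the arrays compared (limma adjusted p = 0.0901, with a range of 0.00328 to 0.0901 over its alternatives). Over all genes, 2591 were called at 24 h, 872 with only the arrays compared, 1204 without IGF1 replicate 1 and 1321 without vehicle replicate 2. Between treatments, all-gene calls were 2 at 48 h (0 to 46 over the alternatives) and 0 at 168 h (at most 14). From 24 h to 48 h with vehicle they were 3611, but 2267 without vehicle replicate 3 of 24 h and 2150 without both arrays of slide 3. For the change of the IGF1 difference they were 11 at 48 h (0 to 259) and 1756 at 168 h (down to 1007, without IGF1 replicate 1 of 24 h). Dim signals limit Kif2c, Kif11 and Kif4, which were not well above background on 2 to 4 of the 4 IGF1 arrays of 24 h.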
